A study of Mus musculus with 12 samples.

Results

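Astroglial transcripts of the mouse pineal gland are described here through 9 genes that mark astrocytes and the interstitial glia of the gland: the glutamate transporters Slc1a3 and Slc1a2, the intermediate filaments Gfap and Vim, the water channel Aqp4, the fatty acid carrier Fabp7, the folate enzyme Aldh1l1, the transcription factor Sox9 and the calcium-binding protein S100b. The 9 genes were chosen with earlier results of these data known, so their counts beside the shares of all probe sets are a description. Their probe sets were taken by gene symbol alone, as all those annotated to these genes on the Affymetrix mouse 430_2 array. Of 18193 genes with a probe set of their own on the array these are 9. They are read by 29 of 45037 probe sets, 28 of them annotated to 1 gene only, and 19 of the 28 passed the filter on dim signals, with at least 1 for every gene. Whole pineal glands came from 129sv control animals and from Crx-/- animals on that strain, which lack the homeobox factor Crx of photoreceptors and pinealocytes. Glands were taken by day, at Zeitgeber time 6 (ZT6), and by night, at ZT20, from animals of both genders older than 2 months kept in 12 h light and 12 h dark. Each of the 4 groups (control ZT6, control ZT20, Crx-/- ZT6, Crx-/- ZT20) held 3 arrays labelled as biological replicates. How many glands were pooled for an array is not given in the sources used here.

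Most cells of the pineal gland are pinealocytes, which make melatonin. Between them lie interstitial cells, which share filaments, transporters and calcium-binding proteins with brain astrocytes and which clear glutamate and buffer ions around the pinealocytes. In bulk tissue, fewer cells of a type and less RNA per cell cannot be told apart. Several of the markers are also made elsewhere: Vim in fibroblasts, endothelium and microglia, S100b in oligodendrocytes and Schwann cells, and Fabp7 in radial glia, Schwann cells and olfactory ensheathing cells.

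One array stood apart. Control ZT20 replicate 3 correlated across the 24273 kept probe sets at 0.916 to 0.923 with the other control ZT20 arrays and at 0.964 to 0.987 with the Crx-/- ZT20 arrays, while other pairs within a group lay at 0.976 to 0.989. It was kept under its label, and changes between the genotypes are also given without it. Of the 19 astroglial probe sets 18 (94.7%) lay nearer on this array to the Crx-/- ZT20 mean than to the mean of the other control ZT20 arrays, against 65.6% of all kept probe sets, while 6 of 19 (31.6%) lay within the range of the Crx-/- ZT20 arrays, against 39.6%. The array also had the highest 5′ to 3′ signal ratios of all 12 (0.337 for actin and 0.691 for Gapdh). Signal for Crx itself was present in both genotypes. On its brighter probe set it was 6529 to 7419 at ZT6 and 8329 to 10048 at ZT20 in control glands, and 6262 to 7729 and 7436 to 8876 in Crx-/- glands. On its dimmer probe set it was 2239.6 to 2478 and 2246 to 3874 in control glands, and 1263 to 1734 and 1694.5 to 2439 in Crx-/- glands, with no overlap at ZT6. Where these probes lie relative to the deleted part of Crx is not given, so they do not check the labels. All 10 of 10 pinealocyte markers passed the filter, as did all 9 astroglial genes.

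Over both times of day, 7 of the 9 astroglial genes rose in Crx-/- glands (Slc1a3, S100b, Gfap, Aqp4, Sox9, Aldh1l1 and Vim), Fabp7 fell, and Slc1a2 did not pass on its brightest probe set. Each gene was judged on the kept probe set of highest mean, by limma on log2 normalized signals with Benjamini-Hochberg adjusted p under 0.05 over 24273 probe sets. Background was high: 19.3% of all kept probe sets were called higher and 18.7% lower in this comparison. The median change of the 9 genes was 0.73 on the log2 scale, against 0.01 for all kept probe sets. Leaving out control ZT20 replicate 3 gave 7 higher and 2 lower genes, with Slc1a2 as the further fall (-0.46 ± 0.12, adjusted p = 0.00732). There the background was 25.8% higher and 25.1% lower and the median of the 9 genes 0.99. The 9 probe sets left out as dim had signals of 0.7 to 109.5 over all arrays, the highest of them on 1425382_a_at of Aqp4 (19.3 to 109.5), and 1 probe set annotated to Slc1a2 together with Gm13872 was not assigned to either.

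**Figure D1:**
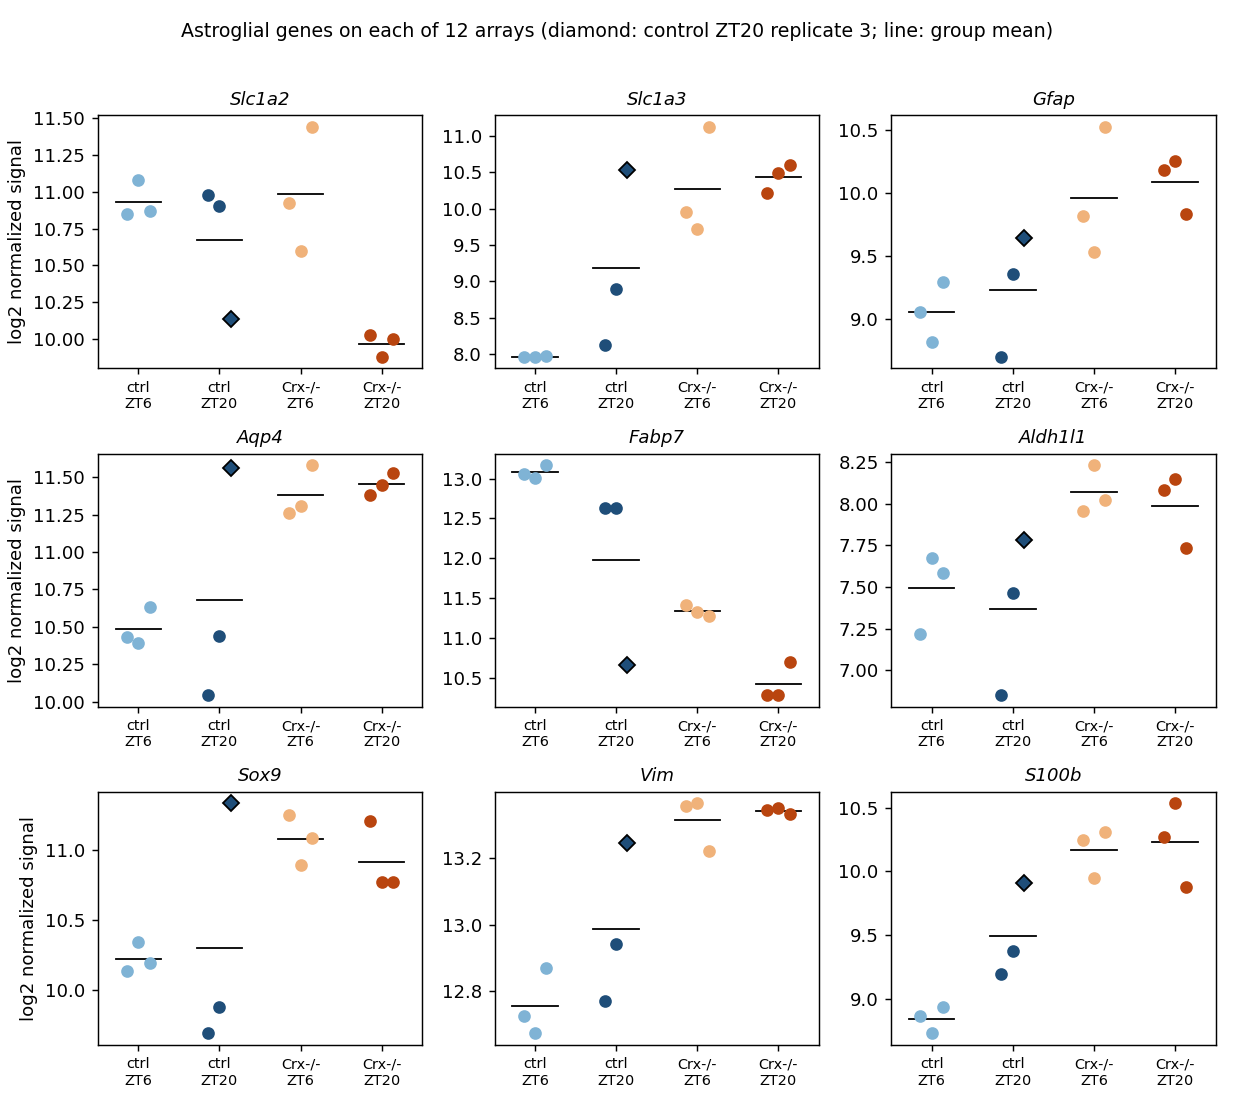
Normalized log2 signal of the brightest kept probe set of each gene (y axis) on the 12 arrays by group (x axis), with a line at each group mean and a diamond for control ZT20 replicate 3. In Fabp7 the control arrays other than the diamond lie at 12.62 or above and the Crx-/- arrays at 11.41 or below, while Slc1a3, Aqp4, Gfap, Sox9, Vim and S100b have their Crx-/- arrays above the control ZT6 arrays.

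Slc1a3 encodes the glutamate and aspartate transporter of astrocytes and Müller glia (GLAST). On its brightest probe set, 1452031_at, the deposited signals were 235, 243 and 275 by day and 148, 419.7 and 1614 by night in control glands, and 919, 1020.4 and 2478 by day and 980.4, 1404 and 1854 by night in Crx-/- glands, in the order of replicates 1 to 3, as throughout. All 6 Crx-/- arrays were above 5 of the 6 control arrays, and the exception was control ZT20 replicate 3. Over both times the log2 change was 1.78 ± 0.34 (SE, n = 6 against 6 arrays; limma, adjusted p = 0.00226), or 3.43-fold, and 2.13 ± 0.22 without that array (adjusted p = 5.4e-06).

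At ZT6 the change of Slc1a3 was 2.30 ± 0.49 (adjusted p = 0.00567), with no overlap between the groups of 3. At ZT20 it was 1.25 ± 0.49 and did not pass (adjusted p = 0.103), whereas without control ZT20 replicate 3 it was 1.94 (adjusted p = 0.000642). Within the Crx-/- ZT6 group, replicate 3 lay at 11.12 on the normalized log2 scale and the others at 9.96 and 9.72. The dimmer probe sets 1443749_x_at and 1426340_at changed in the same direction over both times, by 1.86 ± 0.52 (adjusted p = 0.0140) and 1.40 ± 0.40 (adjusted p = 0.0160), the former by 2.40 without control ZT20 replicate 3 (adjusted p = 3.16e-05). Control ZT6 signals of 1426340_at, 17.4 to 20.1, were close to the 16.4 that probe sets for Bacillus transcripts, absent from the gland, reached at most, and this probe set passed the filter through its brighter arrays. It did not pass the filter without control ZT20 replicate 3. Control signals of 1443749_x_at were 28 to 53.9 at ZT6 and 6.4, 27.2 and 262.2 at ZT20. They reached below the 16.4 of the Bacillus probe sets, and the size of its change is uncertain. The 3 other probe sets of Slc1a3 were dim on all arrays and were left out (at most 79.8).

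The promoter regions of 3 members in which a searched motif was found are shown, as RefSeq sequence of the build GRCm38.p6, from 250 bases before to 50 bases after the gene's start and 5′ to 3′ on the gene's strand. Motifs were searched on both strands: TAATCC, the core bound by Crx and its relative Otx2, TTCNNNGAA, bound by STAT factors, the palindromic motif of nuclear factor I, and ACAAT, the core bound by SOX factors. Capitals mark every match. The region of Slc1a3 lies at chr15:8710758-8711057 (minus strand), that of Gfap at chr11:102897151-102897450 (minus strand) and that of Fabp7 at chr10:57784673-57784972 (plus strand).
Slc1a3: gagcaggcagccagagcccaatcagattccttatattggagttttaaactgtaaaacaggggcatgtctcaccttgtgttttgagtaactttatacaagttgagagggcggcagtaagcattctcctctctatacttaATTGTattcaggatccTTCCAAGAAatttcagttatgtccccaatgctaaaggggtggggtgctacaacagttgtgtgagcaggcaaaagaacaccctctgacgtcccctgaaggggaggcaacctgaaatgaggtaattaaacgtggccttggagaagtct
Gfap: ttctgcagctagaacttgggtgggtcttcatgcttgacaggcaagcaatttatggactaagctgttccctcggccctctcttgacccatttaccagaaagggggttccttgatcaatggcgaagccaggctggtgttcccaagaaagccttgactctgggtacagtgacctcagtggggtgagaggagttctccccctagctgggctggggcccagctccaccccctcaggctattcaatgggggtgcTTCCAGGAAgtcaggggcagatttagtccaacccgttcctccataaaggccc
Fabp7: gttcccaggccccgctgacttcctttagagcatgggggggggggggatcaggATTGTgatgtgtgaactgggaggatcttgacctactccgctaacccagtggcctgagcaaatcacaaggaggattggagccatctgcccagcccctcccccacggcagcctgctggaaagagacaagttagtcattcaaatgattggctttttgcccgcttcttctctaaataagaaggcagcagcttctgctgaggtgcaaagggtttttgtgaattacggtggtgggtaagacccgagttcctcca

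In Slc1a3 the STAT motif spanned bases 155 to 163 and the reverse complement of the SOX core bases 139 to 143, counted from the first base shown. The STAT motif of Gfap spanned bases 249 to 257, across the gene's start, and the SOX core of Fabp7 lay on the opposite strand at bases 53 to 57. A region was held for 7 of the 9 genes (for Sox9 and Aqp4 none was used). The STAT motif was in 2 of these 7 and in 8.30% of 32851 promoter regions of the same length, and the SOX core in 2 of 7 against 31.0%. TAATCC was in 0 of 7 against 7.06%, and the nuclear factor I motif in 0 of 7 against 0.0365%. These are matches of letters in a short window, with no measure of binding.

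Slc1a2 encodes the second astroglial glutamate transporter (GLT-1), which clears most of the synaptic glutamate of the forebrain. Its brightest probe set, 1438194_at, gave signals of 1717, 2261 and 2113 by day and 1254, 1815 and 1239 by night in control glands, and 1823, 1833 and 3073 by day and 847, 913 and 1242 by night in Crx-/- glands. The genotypes overlapped at ZT6 and, after normalization, were separate at ZT20, with the Crx-/- arrays at 9.88 to 10.03 and the control arrays at 10.13 to 10.98 on the log2 scale. Over both times the change was -0.32 ± 0.16 (95% confidence interval -0.67 to 0.03; limma, adjusted p = 0.132). It passed without control ZT20 replicate 3, as given above, and without Crx-/- ZT6 replicate 3 (-0.44, adjusted p = 0.0420).

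The probe set 1451627_a_at of Slc1a2 differed more clearly between the genotypes than the brightest one. Its signals were 244, 286 and 321 by day and 105, 219 and 152 by night in control glands, and 134, 197 and 180.3 by day and 66.0, 72.5 and 127 by night in Crx-/- glands, and at neither time did the normalized control and Crx-/- arrays overlap. It fell over both times by 0.97 on the log2 scale (SE 0.17, adjusted p = 0.00134), at ZT6 by 0.80 (adjusted p = 0.0280) and at ZT20 by 1.14 (adjusted p = 0.0281). Leaving out control ZT20 replicate 3, it fell by 1.13 over both times and by 1.45 at ZT20 (adjusted p = 8.84e-06 and 7.21e-05). The dimmest kept probe set, 1439940_at, changed by -0.61 ± 0.25 over both times and did not pass (adjusted p = 0.0676), but passed without control ZT20 replicate 3 (-0.76, adjusted p = 0.0116). The kept Slc1a2 probe sets disagreed at ZT6, where the brightest had a change of 0.06 ± 0.23, and all 3 had negative changes at ZT20. Against them went 1433094_at, which was left out as dim, so no test of it is given. At ZT20 its signals were 13.7 to 18.7 in control glands and 30.6 to 41.8 in Crx-/- glands, without overlap. At ZT6 they were 21.7 to 29.3 and 13.3 to 20.9, so this probe set was higher by night in Crx-/- glands.

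Fabp7, the brain fatty acid-binding protein of radial glia and immature astrocytes, had the largest fall among the 9 genes. Its single probe set gave 8429, 8548 and 9655 by day and 5173, 6439.6 and 1769 by night in control glands, and 2579.7, 2966 and 2753 by day and 1029, 1214 and 1987 by night in Crx-/- glands. Control ZT20 replicate 3 lay within the range of the Crx-/- ZT20 arrays, and every other control array lay above every Crx-/- array. Over both times Fabp7 fell by 1.64 on the log2 scale (SE 0.27, adjusted p = 0.00105), or 3.13-fold, at ZT6 by 1.74 (adjusted p = 0.00725) and at ZT20 by 1.55 (adjusted p = 0.0353). Without control ZT20 replicate 3 Fabp7 fell by 1.98 over both times and by 2.22 at ZT20 (adjusted p = 6.92e-10 and 3.12e-08).

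The intermediate filament genes Gfap, the filament protein of mature and reactive astrocytes, and Vim, that of immature glia and mesenchymal cells, both rose. Gfap signals on 1426509_s_at were 493, 459 and 716 by day and 227, 583 and 895 by night in control glands, and 830.3, 899.5 and 1665 by day and 952, 1191 and 1105 by night in Crx-/- glands. At neither time did the normalized control and Crx-/- arrays overlap, and Gfap rose over both times by 0.88 ± 0.19 (adjusted p = 0.00427). At ZT6 the rise was 0.90 ± 0.27 (adjusted p = 0.0291), a call that was lost without control ZT6 replicate 1 or 2 or Crx-/- ZT6 replicate 1 or 3 (adjusted p = 0.0575 to 0.114), and at ZT20 the change was 0.86 (adjusted p = 0.0617). With control ZT20 replicate 3 left out Gfap rose by 0.99 over both times and by 1.07 at ZT20 (adjusted p = 0.000549 and 0.00756).

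The other Gfap probe sets did not pass. For 1426508_at, whose signals were 352 to 559 in control ZT6 and 360.1 to 613 in Crx-/- ZT6, the change over both times was 0.23 ± 0.18 (adjusted p = 0.346), and for the dim 1440142_s_at it was 0.74 ± 0.35 (adjusted p = 0.110). Neither passed without control ZT20 replicate 3 (0.34 and 0.77, adjusted p = 0.107 and 0.0947). Names ending in _s_at or _x_at denote Affymetrix probe sets that may match more than one transcript, and the rise of Gfap rests on one of these.

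For Vim, the signals on 1438118_x_at were 6718, 6848 and 8015 by day and 5867, 8031 and 9741 by night in control glands, and 10577, 10753 and 9475 by day and 10314, 10045 and 10582 by night in Crx-/- glands. Its changes were small but even over the arrays: 0.46 ± 0.07 over both times (adjusted p = 0.000656), 0.56 ± 0.10 at ZT6 (adjusted p = 0.00215) and 0.36 ± 0.10 at ZT20 (adjusted p = 0.0421). The probe sets 1456292_a_at and 1450641_at rose over both times by 0.48 ± 0.06 and 0.50 ± 0.11 (adjusted p = 0.000461 and 0.00462). At ZT20 alone 1456292_a_at passed (0.34 ± 0.09, limma, adjusted p = 0.0410). There 1450641_at did not pass (0.30 ± 0.16, adjusted p = 0.209), but passed without control ZT20 replicate 3 (0.54, adjusted p = 0.00061). With arrays scaled to their 75th percentile instead of quantile normalized, none of these calls of 1438118_x_at passed, with changes of 0.30 over both times, 0.43 at ZT6 and 0.16 at ZT20 (adjusted p = 0.0829, 0.0981 and 0.546). Leaving out control ZT20 replicate 3, under quantile normalization, the rises were 0.52 over both times and 0.49 at ZT20 (adjusted p = 1.4e-06 and 0.000176).

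S100b, a calcium-binding protein of astrocytes and of some oligodendroglia, gave signals on 1434342_at of 434, 429 and 556 by day and 323, 589.6 and 1065 by night in control glands, and 1117, 1197 and 1434 by day and 1018, 1449 and 1139.7 by night in Crx-/- glands. After normalization the arrays of the genotypes were separate at ZT6, and at ZT20 they overlapped in control ZT20 replicate 3 (9.91) and Crx-/- ZT20 replicate 3 (9.88). S100b rose by 1.03 ± 0.14 over both times (adjusted p = 0.000512), or 2.04-fold, by 1.32 ± 0.20 at ZT6 (adjusted p = 0.00121) and by 0.73 ± 0.20 at ZT20 (adjusted p = 0.0435). Without control ZT20 replicate 3 it rose by 1.14 over both times and by 0.95 at ZT20 (adjusted p = 5.62e-06 and 0.00124). Its dimmer probe set 1419383_at rose by 0.75 ± 0.20 over both times (adjusted p = 0.0116), and by 0.94 without that array (adjusted p = 0.000121). At ZT20 alone 1419383_at did not pass with all arrays (0.56 ± 0.28, limma, adjusted p = 0.189), but passed without that array (0.94, adjusted p = 0.00391).

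Aqp4, the water channel of astrocyte endfeet, gave signals on 1434449_at of 1285, 1403 and 1799.5 by day and 602, 1292 and 3194 by night in control glands, and 2317, 2919.6 and 3332 by day and 2256, 2759 and 3406 by night in Crx-/- glands. Control ZT20 replicate 3, at 11.56 after normalization, lay above the 3 Crx-/- ZT20 arrays (11.38 to 11.53), and the other control arrays lay below all Crx-/- arrays. The rise was 0.84 ± 0.20 over both times (adjusted p = 0.00620) and 0.90 ± 0.28 at ZT6 (adjusted p = 0.0328), which was lost without any 1 of the 6 ZT6 arrays (adjusted p = 0.0582 to 0.104). Leaving out that array, Aqp4 rose by 1.06 ± 0.09 over both times (adjusted p = 8.22e-07), and at ZT20 by 1.22 (adjusted p = 2.11e-05) where the change with it was 0.77 (adjusted p = 0.0853).

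Sox9, a transcription factor of glial precursors and astrocytes, gave signals on 1451538_at of 1043, 1353 and 1339.7 by day and 466, 845 and 2743 by night in control glands, and 2302, 2237 and 2419 by day and 1959, 1716 and 2088 by night in Crx-/- glands. Control ZT20 replicate 3 was the highest of all 12 arrays. Sox9 rose by 0.73 ± 0.23 over both times (adjusted p = 0.0241). That call was lost without control ZT6 replicate 1, control ZT20 replicate 1 or 2, Crx-/- ZT6 replicate 1 or Crx-/- ZT20 replicate 1 (adjusted p = 0.0504 to 0.0621), while without control ZT20 replicate 3 the rise was 1.00 ± 0.10 (adjusted p = 3.97e-06). At ZT6 the change was 0.85 and at ZT20 0.61 (adjusted p = 0.0708 and 0.206), and without that array Sox9 rose by 0.86 and 1.13 (adjusted p = 0.000279 and 9.13e-05). The second probe set, 1424950_at, spread widely within each Crx-/- group (417 to 2065 at ZT6 and 207 to 911 at ZT20), and its change of 0.48 ± 0.47 over both times did not pass (adjusted p = 0.439), but passed without control ZT20 replicate 3 (0.90, adjusted p = 0.0430).

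Aldh1l1, the folate enzyme used as a pan-astrocyte marker, gave signals on 1424400_a_at of 141, 197 and 206 by day and 57.7, 144 and 266 by night in control glands, and 212, 357 and 308 by day and 224, 268 and 276 by night in Crx-/- glands. The arrays were separate at ZT6 and overlapped at ZT20. Aldh1l1 rose by 0.60 ± 0.16 over both times (adjusted p = 0.0136; 0.71 without control ZT20 replicate 3, adjusted p = 0.00156), while 0.58 at ZT6 and 0.62 at ZT20 did not pass (adjusted p = 0.0881 and 0.0947). Both passed without control ZT20 replicate 3 (0.58 and 0.83, adjusted p = 0.0361 and 0.0104).

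**Figure D2:**
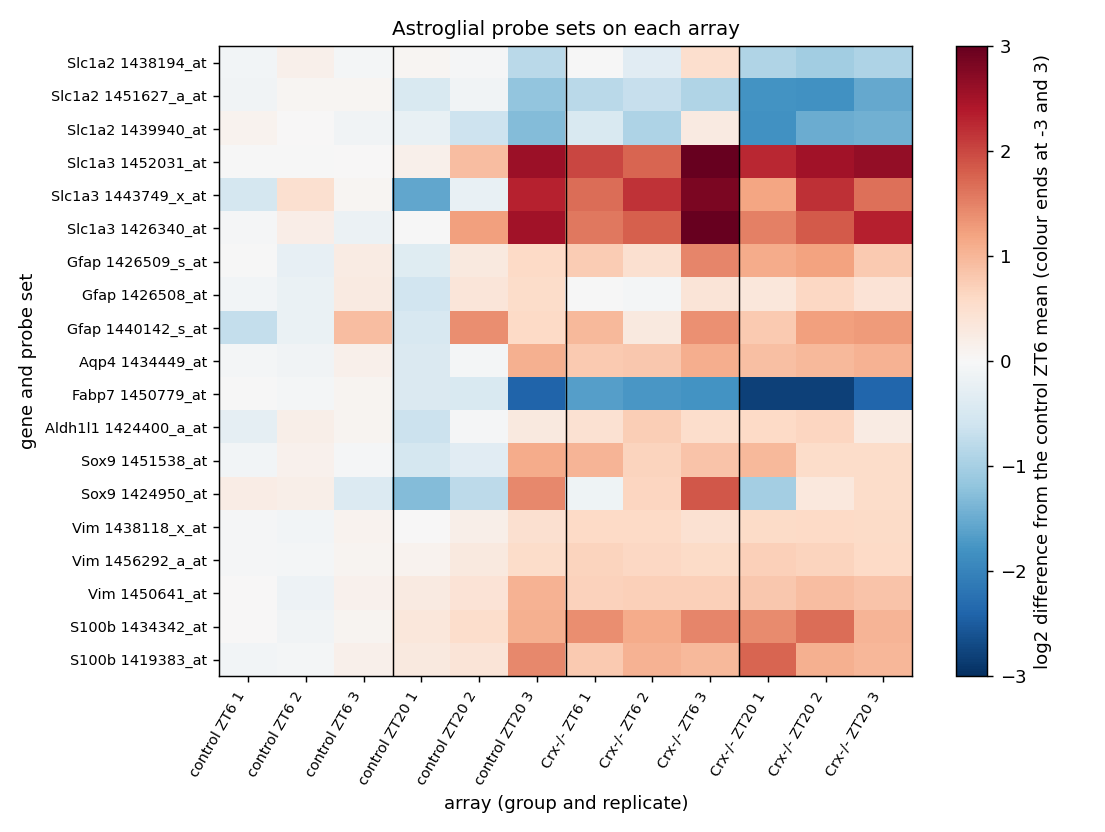
Log2 difference of each kept astroglial probe set (rows) on each array (columns, group and replicate) from its control ZT6 mean, with colours ending at -3 and 3. The column of control ZT20 replicate 3 resembles the Crx-/- ZT20 columns, with Fabp7 and the 3 Slc1a2 probe sets low and the others high; the highest Slc1a3 values are in Crx-/- ZT6 replicate 3.

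Counted by time, 5 genes rose at ZT6 (Slc1a3, S100b, Aqp4, Gfap and Vim) and Fabp7 fell, where 13.7% of kept probe sets were called higher and 12.3% lower. Of the 19 kept probe sets 12 were higher without overlap between the 3 control and 3 Crx-/- arrays at ZT6 (25.1% of all kept probe sets) and 2 were lower (25.3%). Control ZT20 replicate 3 enters this comparison only through the normalization, the filter and the estimate of the spread. With that array left out, 7 genes rose and Fabp7 fell at ZT6, with 19.0% and 18.0% of probe sets called. The ratio of 5′ to 3′ signal, a measure of RNA integrity and amplification, was 0.459 to 0.548 for Gapdh on the Crx-/- ZT6 arrays against 0.590 to 0.636 on the control ZT6 arrays, and 0.169 to 0.219 against 0.248 to 0.283 for actin. Its part in the result was not tested.

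At ZT20, S100b and Vim rose on their brightest probe sets and Fabp7 fell with all 12 arrays, against 4.56% of probe sets called higher and 5.18% lower. The number of genes called at ZT20 was 0 without any 1 of 8 arrays (control ZT6 replicate 1, 2 or 3, control ZT20 replicate 1 or 2, Crx-/- ZT6 replicate 1, or Crx-/- ZT20 replicate 1 or 2), 1 without Crx-/- ZT6 replicate 2, 2 without Crx-/- ZT6 replicate 3 (Fabp7 and, gained, Gfap) or without Crx-/- ZT20 replicate 3 (Fabp7 and S100b), and 9 without control ZT20 replicate 3. With that array left out 7 genes rose and 2 fell, where 20.1% of probe sets were called higher and 19.4% lower. With all arrays 6 of the 19 probe sets did not overlap between genotypes at ZT20, 3 of them higher and 3 lower in Crx-/- glands (26.1% of all kept probe sets, in either direction), and without that array 12 were higher and 4 lower (31.3% and 29.7%).

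**Figure D3:**
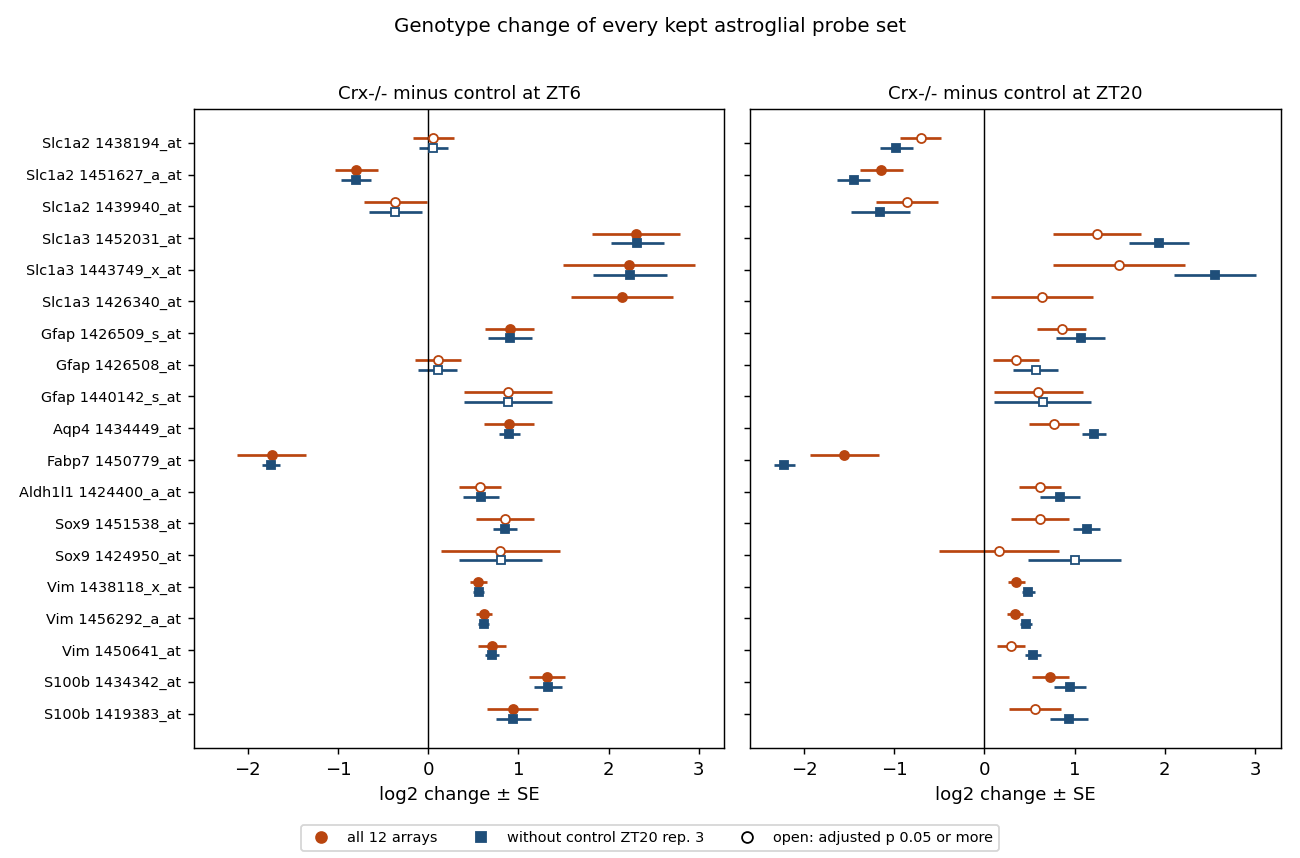
Log2 change of Crx-/- against control glands with its standard error (x axis) for the 19 kept astroglial probe sets (y axis) at ZT6 and ZT20, from all 12 arrays (circles) and without control ZT20 replicate 3 (squares), open where the adjusted p was 0.05 or more. All Slc1a3 values lie right of 0 and Fabp7 lies left of 0 at both times; leaving the array out moves the ZT20 values away from 0.

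From ZT6 to ZT20 in control glands, none of the 9 genes passed on its brightest probe set in limma with all arrays (5.60% of kept probe sets were called higher and 6.70% lower), although 9 of the 19 probe sets had an unadjusted p under 0.05. The Vim probe sets 1456292_a_at and 1450641_at rose at night in control glands by 0.33 ± 0.09 and 0.57 ± 0.16 (adjusted p = 0.0357 and 0.0350), and still passed without control ZT20 replicate 3 (0.21 and 0.34, adjusted p = 0.0479 and 0.0201). Fabp7 changed by -1.10 ± 0.39 (adjusted p = 0.0827). With control ZT20 replicate 3 left out it fell by 0.45 (adjusted p = 0.0139), against 10.2% of probe sets called higher and 9.82% lower, and it also passed without control ZT20 replicate 1 (-1.41, adjusted p = 0.0388) or 2 (-1.42, adjusted p = 0.0429). Leaving out control ZT20 replicate 1 also called the night values of Slc1a3 (1.75), Vim (0.33) and S100b (0.79) higher, with adjusted p = 0.0284, 0.0303 and 0.0353, and leaving out Crx-/- ZT20 replicate 3 that of S100b (0.65, adjusted p = 0.0446).

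In Crx-/- glands, 0 of the 9 genes passed between ZT6 and ZT20 with all arrays (0.618% of kept probe sets called higher and 0.626% lower, and 4 of 19 had an unadjusted p under 0.05). Slc1a2 changed by -1.02 ± 0.23 (adjusted p = 0.0532) and Fabp7 by -0.92 ± 0.39 (adjusted p = 0.335), and for both the 3 arrays of ZT20 lay below the 3 of ZT6, as for 11.9% of kept probe sets. Here too control ZT20 replicate 3 enters only through the normalization, the filter and the spread. Without that array Slc1a2 and Fabp7 both passed (-1.02, adjusted p = 0.00252, and -0.92, adjusted p = 0.000129), against 2.27% of probe sets called higher and 2.46% lower. Slc1a2 passed as well without control ZT20 replicate 1 (-1.01, adjusted p = 0.0452) or Crx-/- ZT6 replicate 2 (-1.22, adjusted p = 0.0470).

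The interaction of genotype and time was called for 0 of the 9 genes with all arrays by limma, where 0.0206% of kept probe sets were called higher and 0.0371% lower, and 1 of the 19 astroglial probe sets had an unadjusted p under 0.05. It was called for Slc1a2 without control ZT20 replicate 3 (-1.03, adjusted p = 0.0362), against 1.48% of probe sets called higher and 2.54% lower. In that fit the change of Slc1a2 from day to night was 0.01 in control glands (adjusted p = 0.977) and -1.02 in Crx-/- glands. The dimmer Slc1a2 probe sets had interaction values of -0.65 and -0.79 in the same fit and did not pass (adjusted p = 0.166 and 0.341).

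Seen across the 12 arrays, the 7 members correlated positively with one another, and Fabp7 and Slc1a2 correlated negatively with all 7. As a description, over arrays that share their group means, Pearson's r without control ZT20 replicate 3 (11 arrays) was 0.94 between Slc1a3 and S100b, 0.94 between Slc1a3 and Aqp4, and 0.93 between Slc1a3 and Gfap. It was -0.91 between Slc1a3 and Fabp7 and 0.68 between Fabp7 and Slc1a2. Among 12378 other genes, those most like Slc1a3 over 12 arrays were Robo1, an axon guidance receptor (r = 0.987), Gjb6, the astrocyte connexin 30 (0.979), and Scn2b, a sodium channel subunit (0.979). Those most like Fabp7 were Mpp4, a scaffold protein of photoreceptors (0.992), Tg (0.988) and Igdcc3 (0.987). Those most like Slc1a2 reached only 0.892 (Oxa1l), 0.889 (Add2) and 0.886 (Gjd2).

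For the other members the nearest genes were S100a6 (r = 0.987), Hoxc4 (0.985) and Pantr1 (0.982) for Aqp4, Scara3 (0.990), Pla2g4a (0.985) and Tgfb1i1 (0.983) for S100b, and Colec12 (0.970), Calcrl (0.963) and Penk (0.955) for Gfap. Sox9 was closest to Dock1 (0.964), Kdm7a (0.957) and Clta (0.947), Vim to Tmsb10 (0.986), Tmem176b (0.986) and Hdac9 (0.984), and Aldh1l1 to Ace (0.969), Grb14 (0.965) and Tmem98 (0.958).

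Beyond the members, 71 further genes of astroglial function and of the members' families were listed and 63 were tested. These too were listed with earlier results of these data known. Over both times 34 rose and 3 fell, with a median change of 0.42 on the log2 scale against 0.01 for all kept probe sets (40 and 6 without control ZT20 replicate 3). At ZT6 25 rose and 3 fell, and at ZT20 6 rose and 1 fell (29 and 7 without that array). The background shares are those given above for each comparison.

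By function, genes of ion buffering and cell coupling rose in 4 of 9 and fell in 0. Gjb6 signals were 373.5 to 491.3 in control ZT6 and 1103.4 to 1850.4 in Crx-/- ZT6, and Gjb6 rose by 1.27 ± 0.24 over both times (adjusted p = 0.00195). The inward rectifier potassium channel Kcnj10 (1.03 ± 0.23), the bicarbonate transporter Slc4a4 (0.57 ± 0.11) and the main astrocyte connexin Gja1 (0.42 ± 0.08) rose as well. Among 6 genes of glutamate and amino acid handling only the cystine-glutamate exchanger Slc7a11 rose (0.89 ± 0.28), and glutamine synthetase Glul (0.06 ± 0.03) did not pass.

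Lipid and metabolic genes rose in 7 of 14, among them the acyl-CoA synthetase Acsbg1 (1.46 ± 0.29), with Ndrg2 at 0.71 ± 0.15 and Plpp3 at 0.51 ± 0.09. The proteoglycan Gpc5 also passed (1.61 ± 0.37), but its control ZT6 signals of 11.1 to 31.4 reached down to those of the Bacillus probe sets, and the size of its change is uncertain. Of 11 filament and reactive genes 7 rose, among them the sphingosine phosphate receptor S1pr3 (1.18 ± 0.22), the oncostatin M receptor Osmr (0.96 ± 0.19), the small heat shock protein Hspb1 (0.89 ± 0.15) and the progenitor filament nestin, Nes (0.70 ± 0.23). The reactive astrocyte marker Serpina3n changed by -0.23 ± 0.16 and did not pass, but fell by 0.39 without control ZT20 replicate 3 (adjusted p = 0.0120). Transcription factors and signalling genes rose in 9 of 12, with the progenitor factors Sox2 (0.79 ± 0.19), Hes1 (0.53 ± 0.14) and Pax6 (0.47 ± 0.14), while the nuclear receptor Rorb fell by 0.52 (SE 0.12). On the signals as deposited 1 of these 12 genes was called, and none of the 10 called after normalization turned sign.

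The gene families of the members were not uniform. Of 6 tested S100 genes 4 rose, with S100a16 at 0.99 ± 0.20, S100a10 at 0.82 ± 0.17 and S100a6 at 0.72 ± 0.18, and 2 fell, S100a1 by 0.88 (SE 0.15) and S100a13 by 0.57 (SE 0.12). Fabp3, the heart-type fatty acid carrier, rose by 1.07 ± 0.27, opposite to Fabp7, and Fabp5 (0.11 ± 0.06) and Fabp4 (0.53 ± 0.25) did not pass. The neutral amino acid transporter Slc1a4 rose by 0.72 ± 0.12, while the neuronal glutamate transporter Slc1a1 (0.01 ± 0.23) did not pass. Without control ZT20 replicate 3, the 23 list genes named by rule all passed, with changes 1.06 to 1.29 times as large (1.53 for Gjb6, for example), while Fabp4, Fabp5, Slc1a1 and Glul still did not. In the authors' deposited table of genes higher in Crx-/- glands at both times together, Slc1a3 has a log2 fold change of 1.41, Gfap of 1.28, S100b of 1.13 and Aqp4 of 1.10, and S100a1 is in their table of lower genes at -1.05. Fabp7, Slc1a2, Vim, Sox9 and Aldh1l1 were not found by symbol in either table, and Fabp7 is thus not among the 512 entries of lower genes.

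**Figure D4:**
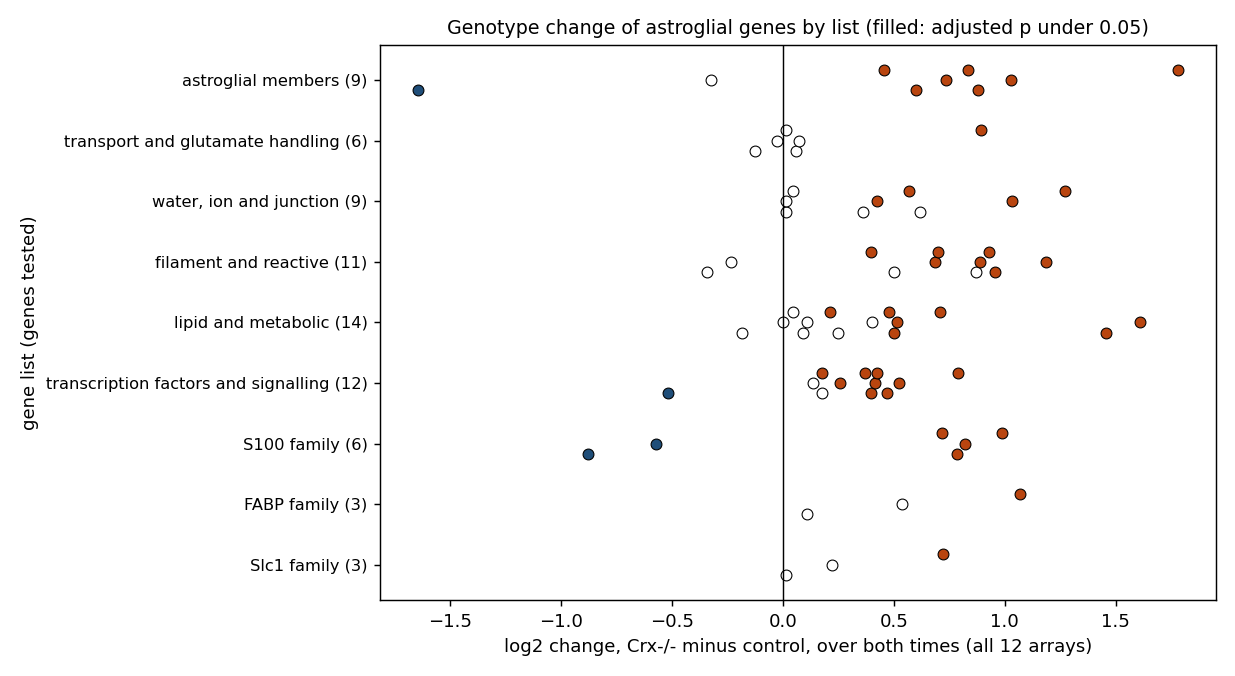
Log2 change of Crx-/- against control glands over both times (x axis, all 12 arrays) for the members and for each list of further astroglial and family genes (y axis, number tested in brackets), filled where the adjusted p was under 0.05. Most filled points lie right of 0; Fabp7 among the members, Rorb, S100a1 and S100a13 lie left of it.

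Markers of several other cell types rose as well over both times, where 19.3% of all kept probe sets were called higher and 18.7% lower. Oligodendrocyte markers rose in 5 of 5 tested, with the lineage factor Sox10, shared with Schwann cells, at 2.20 ± 0.29 and myelin basic protein Mbp at 1.42 ± 0.19, and their summed normalized signal was 5590 to 6370 in control ZT6 and 9280 to 11700 in Crx-/- ZT6. Schwann cell markers rose in 5 of 5 (5060 to 5650 and 9230 to 11500). The defining oligodendrocyte markers Mog, Mag, Mobp, Olig1 and Olig2 and the Schwann cell markers Foxd3 and Ncmap did not pass the filter on dim signals. Meningeal, fibroblast and mural markers rose in 11 of 13 (31100 to 31500 and 53400 to 56800), microglial markers in 6 of 9 (9320 to 14900 and 16100 to 18200), endothelial markers in 5 of 8 (5470 to 6410 and 8550 to 10000) and choroid plexus and ependymal markers in 3 of 6 (32100 to 34100 and 34600 to 39300). At ZT6 alone 0 of these 6 choroid plexus and ependymal markers were called. The summed signal of the 9 astroglial members overlapped, at 20900 to 22800 in control ZT6 and 21900 to 25300 in Crx-/- ZT6. That sum mixes opposite changes of Fabp7 and Vim, its brightest members in control ZT6. Deposited signals in control ZT6 and Crx-/- ZT6 were 8429 to 9655 and 2580 to 2966 for Fabp7, and 6718 to 8015 and 9475 to 10753 for Vim.

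Brain neuron markers rose in 4 and fell in 2 of 8, and pinealocyte markers rose in 0 and fell in 6 of 10. Their sums were 26000 to 26200 and 59300 to 60100 in control ZT6, and 21600 to 24600 and 43600 to 49600 in Crx-/- ZT6. In control ZT20 replicate 3 the sums of the oligodendrocyte (9570), Schwann cell (9670), meningeal (52400), endothelial (8620), choroid plexus and ependymal (37500) and microglial (12900) markers were the highest of their group, and those of the pinealocyte (49300) and brain neuron (22300) markers the lowest. Without it, 13 of 13 meningeal, 7 of 9 microglial, 6 of 8 endothelial and 4 of 5 choroid plexus and ependymal markers rose over both times. Of the pinealocyte markers, a list that includes Crx itself, 1 rose and 6 of 10 fell in that fit. Of the brain neuron markers 4 rose and 2 of 8 fell. The background there was 25.8% of kept probe sets called higher and 25.1% lower. At ZT20 the ranges in control and Crx-/- glands were 6010 to 9570 and 10400 to 11600 for oligodendrocyte, 38700 to 52400 and 50400 to 55400 for meningeal, and 12100 to 12900 and 16500 to 18300 for microglial markers. The part of these cells in the astroglial changes was not tested.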

How the data were processed

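Pineal RNA (100 ng) was amplified with the NuGEN Ovation kit and hybridised to 12 arrays, per the labels' protocols. Linear signal intensities per probe set were deposited, made by the authors with GCOS, per the submitters' processing notes. Their 2% trimmed means were 380.6 to 696.8, so the arrays were not scaled to one another. The authors' deposited gene tables, made with ChipInspector 2.1 per the series' design text, give log2 fold changes and a signed linear value used here as a score only to read the direction.

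Signals were quantile normalized and log2(signal + 3.4) was taken, 3.4 being the 10th percentile of all signals. Leaving out 64 control features of 45101, 24273 probe sets were kept, with at least 3 arrays at or above their array's median (the 50th percentile). Names came from the platform annotation, updated through gene IDs to GRCm38.p6. A limma model (version 3.58.1, R 4.3.3) of the 4 group means was used, letting the prior variance follow a trend, tests were two-sided, and p-values were Benjamini-Hochberg adjusted over all kept probe sets. Probe sets rather than genes were tested because most members have several. The fit was tested on simulated log2 values with the spread of the arrays other than control ZT20 replicate 3. That check does not cover the effect of this array or of the normalization. The number of arrays limits the precision, and p-values measure the spread between samples labelled as biological replicates. The 9 genes, the lists and the rule for named genes were chosen with earlier results of these data known. That rule took every member probe set, up to 4 called genes of largest change per list whose arrays did not overlap at ZT6, and the 3 most similar genes per member. Single genes outside it (Glul, Serpina3n, S100a13, Fabp4, Fabp5, Slc1a1, Sox10, Mbp, Foxd3 and Ncmap) were added after their values were seen. Alternatives covered scaling, pseudocount, filter, unit tested, probe set choice, variance prior, replicate block and each array left out.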

Additional observations from a re-analysis of the deposited data

Results flagged for a closer look

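On its brightest probe set, the day to night change of Slc1a2 differed between the genotypes in a test of the difference itself once control ZT20 replicate 3 was left out. The interaction was -1.03 on the log2 scale (limma, adjusted p = 0.0362), in a fit that called 1.48% of probe sets higher and 2.54% lower. In that fit the other kept Slc1a2 probe sets did not pass (-0.65 and -0.79, adjusted p = 0.166 and 0.341). With all 12 arrays the interaction was -0.76 ± 0.32 and did not pass (adjusted p = 0.377).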

How the results depend on the processing

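Of 1134 values recomputed for the 9 genes in 6 comparisons under 21 alternatives, 65 lost the call, 30 gained one and 1001 kept both their direction and their side of the threshold. The other 38 turned sign and passed neither before nor after; with all arrays these were at most 0.26 in size, and they include Sox9 (0.08 to -0.44) and Aqp4 (0.20 to -0.25) for time in control glands and the interaction of Fabp7 (0.18 to -0.47) without control ZT20 replicate 3. Genes called over both times numbered 8, with 7 on signals as deposited, 7 with 75th percentile scaling and 6 with the probe set of largest spread for each gene, and 7 to 9 when 1 array was left out. At ZT6 the number was 6, with 4 on signals as deposited and 4 to 8 without 1 array. At ZT20 it was 3, with 0 on signals as deposited, without a filter or without a trend in the prior variance, and 0 to 9 without 1 array. For time in control glands it was 0, with 1 each on signals as deposited, with the filter at the 60th percentile, with 1 probe set per gene and with the probe set of largest spread, and 0 to 4 without 1 array. For time in Crx-/- glands it was 0, with 1 for 1 probe set per gene (Slc1a2) and 0 to 2 without 1 array, and for the interaction it was 0, with 0 to 1. Over all kept probe sets, signals as deposited moved the median change by genotype to 0.15 over both times and 0.25 at ZT20, and by time in control glands to -0.27. On these signals 3783 in place of 9216 probe sets were called over both times, and at ZT20 limma called 0 in place of 2365, with 4411 at an unadjusted p under 0.05. Leaving out control ZT20 replicate 3 raised the probe sets called at ZT20 from 2365 to 9535 and in the interaction from 14 to 970. With 1 probe set per gene 5377 of 12379 genes were called over both times. The replicate block left 8 genes called over both times and 6 at ZT6; at ZT20 it ended the call of S100b (0.73, adjusted p = 0.0575), and changed no other call of a member gene. The numbers were not taken to pair the arrays, since deviations of same-numbered arrays correlated at -0.37 to 0.28, with 6 of 18 pairs over 0.1, and 5 of 12 arrays correlated best with an array of their own number. The causes were not tested.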
